A study of Mus musculus with 58 samples.

Results

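Interferon response and MHC class I genes were followed in the mouse retina through the day and night, in healthy and in diabetic animals. The 8 genes were Irf1, Irf7, Irf9, Ifit1, Isg15, B2m, H2-D1 and H2-K1, taken by symbol from the 52459 genes of the count table. The controls were wild-type male littermates, and the diabetic mice were males heterozygous for Ins2Akita, a mutation of the insulin 2 gene that makes misfolded insulin and leads to hyperglycemia. All mice were of a C57BL/6 background, 4 months old and kept in 12 h of light and 12 h of dark. Single retinas, dissected after perfusion with saline, gave 30 control and 28 diabetic libraries of total RNA depleted of ribosomal RNA. Time is given as zeitgeber time (ZT) in hours, so that the light phase begins at ZT0 and the dark phase at ZT12. Each genotype has 4 to 6 libraries at each of ZT1, ZT5, ZT9, ZT13, ZT17 and ZT21. The night samples were handled under dim red light. This mouse is a model of early insulin-deficient diabetes, and a whole retina mixes neurons, glia, vessels and microglia, so fewer cells of a type and less RNA per cell cannot be told apart.

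Interferons are cytokines of the antiviral response. They bind receptors on the cell surface, and the receptors' kinases activate STAT proteins, which join Irf9 in a complex that enters the nucleus and binds the interferon-stimulated response element (ISRE). Irf7 is a master regulator of type I interferon genes and is itself induced by interferon, and Irf1 acts mainly downstream of interferon gamma. Ifit1 binds foreign RNA, and Isg15 is a ubiquitin-like protein that is attached to other proteins. H2-K1 and H2-D1 are the classical heavy chains of MHC class I in this strain, and B2m is the light chain that both need to present peptides on the cell surface. The retina is an immune-privileged tissue in which MHC class I is kept low under healthy conditions.

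The promoter sequences are shown because they carry the letters by which several of these genes are known to respond to interferon. All 8 genes were matched in a RefSeq promoter table of build GRCm38.p6, and the 250 bases before the start were searched on both strands. The ISRE core was searched as GAAANNGAA, and also in the form GAANNGAAA, which was chosen after the sequences were seen. These letters were found in 7.15% and 6.35% of 32536 promoters of the same length, and the 2 forms can overlap. Of the members, Ifit1, Isg15 and B2m held the first form, Isg15, H2-D1 and H2-K1 the second, and Irf1, Irf7 and Irf9 neither. The stretches are written 5′ to 3′ on the strand of the gene, with matches to either form in capitals.
Ifit1, chr19:34640770-34640823, plus strand: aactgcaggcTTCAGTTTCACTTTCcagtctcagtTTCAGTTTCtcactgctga
Isg15, chr4:156200866-156200956, minus strand: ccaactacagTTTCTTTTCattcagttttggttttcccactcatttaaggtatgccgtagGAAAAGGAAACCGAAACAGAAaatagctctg
B2m, chr2:122147538-122147566, plus strand: ataagaacatGAAACTGAAaatgggaaag
H2-D1, chr17:35262934-35262962, plus strand, inside the span of the gene in Gencode: atctcctcagTTTCACTTCtgcacctaac
H2-K1, chr17:34000419-34000447, minus strand: atctccacagTTTCACTTCtgcacctaac

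The gamma-activated sequence (GAS), searched as TTCNNNGAA, was found in Irf1 only among the members, in 1 of its 2 promoters, and in 7.04% of all promoters. The promoter of Irf7 is shown because Irf7 was the member that changed with time. Its window held neither ISRE form, no GAS and no E-box, searched as CACGTG and present in 6.04% of promoters. It held 1 match to the core of the cyclic AMP response element, TGACGT, in capitals here, which was found in 6.5% of promoters. The E-box and this element were chosen after the sequences were seen. The bases of the window nearest the start, which were searched too, lie inside the gene in Gencode and are not shown. A match is a description of letters and was not tested for binding.
Irf7, chr7:141266482-141266674, minus strand: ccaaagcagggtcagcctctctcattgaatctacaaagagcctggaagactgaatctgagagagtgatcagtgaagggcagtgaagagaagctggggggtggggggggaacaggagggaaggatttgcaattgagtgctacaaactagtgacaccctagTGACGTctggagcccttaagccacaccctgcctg

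All 8 genes passed the expression threshold of the rhythm analysis, a median above 4 normalized counts, which are counts divided by DESeq2 size factors. Over both genotypes, the mean level per kb of exon was highest for B2m, with 266.6 ± 52.2 (SD, n = 58) normalized counts per kb, followed by H2-D1 with 169 ± 21.1, Irf7 with 102.4 ± 67.8 and H2-K1 with 90.9 ± 14. Irf9 followed with 39.5 ± 5.1, Irf1 with 15.9 ± 2.5, Ifit1 with 14.4 ± 6.22 and Isg15 with 11.1 ± 5.95. The range of Irf7 within 1 SD overlapped those of H2-D1, H2-K1 and Irf9, as did those of Irf1, Ifit1 and Isg15 with each other. Isg15 rested on 0 to 23 reads per library, and its single count of 0 allows up to 3 reads. Isg15 was therefore measured with a large counting error.

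Reads of the class I heavy chains can be shared with close relatives in the MHC, and those of Ifit1 with other Ifit genes, so these counts are uncertain to that extent. Irf7, on chromosome 7 from 141262706 to 141266481 on the minus strand of GRCm38, shares 45 exon bases with Phrf1 on the other strand. Irf9, on chromosome 14 from 55603571 to 55610030, shares 123 exon bases with Rnf31 on the same strand. Irf1, on chromosome 11 from 53770014 to 53778374, shares 135 exon bases with Gm17334. B2m lies on chromosome 2 from 122147686 to 122153083, Ifit1 on chromosome 19 from 34640871 to 34650009, and Isg15 on chromosome 4 from 156199424 to 156200818. The heavy chains lie on chromosome 17, H2-K1 from 33996017 to 34000347 and H2-D1 from 35262730 to 35267499. No setting for strand is given in the sources used here.

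The libraries held 7773117 to 22147398 counted reads, with a median of 15406440. Rod markers summed to 30558 to 48575 CPM, counts scaled to the same library total, so the main cell type of the retina was present in every library. Microglia markers were low, at 39.1 to 58.3 CPM for 12 genes. Of the 9 lymphocyte and NK cell markers, Cd3e, Cd3g, Klrb1c and Nkg7 had a median count of 0, and the 9 together summed to 0.619 to 1.9 CPM. RNA of neighbouring tissue varied between libraries, with 17.5 to 201.5 CPM for 6 pigment epithelium markers and 0 to 2661 CPM for 5 lens markers.

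Of the 8 genes, Irf7 was rhythmic in both genotypes and no other member was rhythmic in either. The call needed an unadjusted empirical JTK_CYCLE p-value under 0.05 and a highest library more than 25% above the lowest. Noise in single libraries widens this ratio, which differs from the fold predicted by the software that the study used. By this rule 21.8% of 19120 expressed genes were rhythmic in control retinas and 23.9% in diabetic retinas, 4172 and 4565 genes. With the ratio taken between time point means, a choice made after the data were seen, 2532 and 2710 were called, and of the members again Irf7 alone. The other 7 had relative amplitudes, the fitted amplitude as a share of the mean, of 1.27% to 10.8% in control retinas and 3.89% to 21.5% in diabetic ones, with p-values of 0.132 to 0.858 and 0.111 to 0.761. Leaving out 1 library brought B2m under 0.05 in control retinas, at 0.039 without replicate 5 of ZT9, and Ifit1 in diabetic retinas, at 0.0356 without replicate 1 of ZT17.

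Irf7 was low in the day and rose several-fold in the night. Its normalized counts in control retinas were 348.2, 282.8, 194, 210.3 and 238.1 at ZT1. At ZT5 they were 159.6, 155, 176.3, 124.4, 151.7 and 132.3, and ZT9 gave 186.6, 155.4, 163.9, 190.4 and 164.8. The first libraries after lights off, at ZT13, had 173.7, 239.1, 232.5, 407.6 and 356.4. The control retinas thus left the daytime level unevenly, with 1 of the 5 ZT13 libraries still among the values of ZT9. They reached 588.9, 444.2, 880.2, 876.9 and 750 at ZT17, and stood at 496.7, 400, 711.2 and 687.6 at ZT21. Every control library of ZT17 and ZT21 lay above every one of ZT5 and ZT9, where the highest was 190.4. The share of all expressed genes that separate in this way was not counted in either genotype.

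In diabetic retinas the morning values of Irf7, at ZT1, were 244.3, 184.2, 331.4, 307.1 and 328.4 normalized counts. At ZT5 it had 178, 159.4, 181.9, 171.9 and 131, and at ZT9 191.1, 164.9, 158.5, 204.8 and 219.6. Early in the dark, at ZT13, the values were 529.4, 434.8, 480 and 592.2, so all 4 diabetic libraries had left the daytime range. ZT17 gave 632.1, 966.9, 893 and 916.9, and ZT21 gave 798.9, 508.5, 702.8, 736.9 and 797.4. The diabetic night libraries, at 508.5 to 966.9, also lay above all those of ZT5 and ZT9, at 131 to 219.6.

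The cosine fitted to Irf7 peaked at ZT18.5 in control retinas and ZT17.9 in diabetic ones, with relative amplitudes of 77.2% and 80.4%. The empirical p-value was 1e-06 in both, the smallest that 1000000 shuffled series can give, with adjusted p-values of 2.99e-04 and 3.86e-04. Among the rhythmic genes, Irf7 ranked 10 of 4172 by relative amplitude in control retinas and 4 of 4565 in diabetic retinas. The cosine accounted for 73.5% of its variance in control retinas and 89.1% in diabetic ones, which ranked 39 and 1 among the expressed genes. In edgeR's cosine fit the adjusted p-value was 5.97e-11 in control retinas and 5.94e-16 in diabetic ones.

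**Figure D1:**
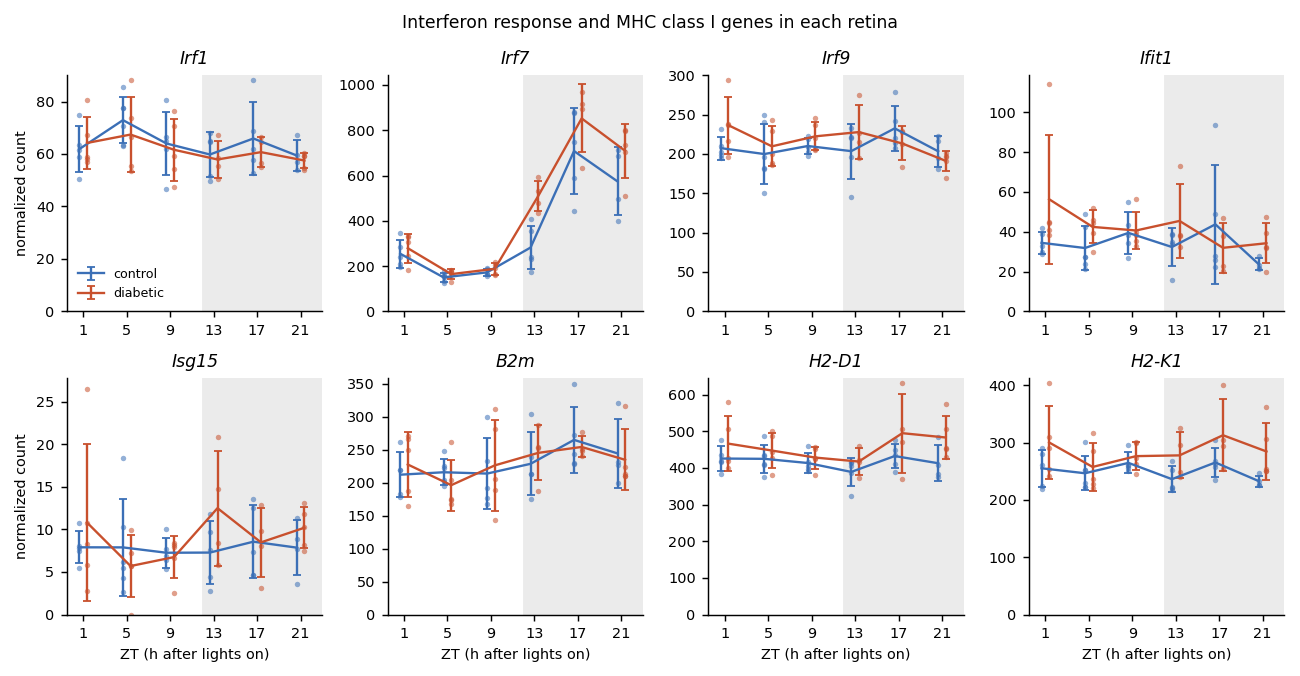
Normalized counts of the 8 genes (y axis) by time in hours after lights on (x axis), with 1 point per retina, lines through group means and bars of 1 SD, control in blue and diabetic in red, and the dark phase shaded. Irf7 stands between 400 and 966.9 at ZT17 and ZT21 and between 124.4 and 219.6 at ZT5 and ZT9, whereas the other 7 genes have no call of rhythm.

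Contrasts of single time points in edgeR's quasi-likelihood fit of all 12 groups, with Benjamini-Hochberg adjustment, gave the size of the change. From ZT5 to ZT17 Irf7 rose 4.74-fold in control retinas, with a log2 fold change of 2.24 ± 0.18 (SE) and an adjusted p of 1.27e-13. In diabetic retinas it rose 5.2-fold, with 2.38 ± 0.19 and an adjusted p of 4.32e-13. This contrast called 15.6% of 18814 genes in control retinas and 7.6% in diabetic ones, and Irf7 ranked 3 and 2 by p-value. It was the only member called in either genotype.

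Across lights off, from ZT9 to ZT13, Irf7 rose 2.71-fold in diabetic retinas, with a log2 fold change of 1.44 ± 0.20 and an adjusted p of 2.59e-05, the smallest p-value of all genes. In control retinas the log2 fold change was 0.73 ± 0.19 with an adjusted p of 0.141, which did not pass. It passed in DESeq2, with 0.72 and an adjusted p of 0.0496, and in edgeR without replicate 1 of control ZT13, at 0.045. This contrast called 0.175% of genes in diabetic and 0.128% in control retinas. Across lights on, from ZT21 to ZT1, Irf7 fell 2.26-fold in control retinas and 2.52-fold in diabetic retinas. The log2 fold changes were -1.18 ± 0.19 and -1.33 ± 0.18, with adjusted p-values of 1.76e-04 and 5.75e-06, where 0.739% and 2.9% of genes were called.

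Markers of the retinal pigment epithelium moved with time too. Of 6 markers, 3 rose from ZT5 to ZT17 in control retinas and 4 in diabetic ones, and 3 fell from ZT21 to ZT1 in each. From ZT5 to ZT17 Rpe65, Rgr and Rdh5 rose by 1.31, 1.02 and 0.78 on the log2 scale in control retinas. In diabetic ones they rose by 2.39, 2.05 and 1.28, and Tyr by 2.04. The summed level of the 6 markers in control retinas was 27.2 to 98.7 CPM at ZT5, 96 to 146.4 at ZT9 and 78.1 to 134 at ZT17. In diabetic ones it was 17.5 to 27.8, 53.8 to 125.3 and 45.3 to 117.3. At ZT13, ZT21 and ZT1 it was 40.5 to 165.6, 118.9 to 201.5 and 21.5 to 68.6 in control retinas. In diabetic ones this sum was 103.7 to 183, 117.5 to 156.2 and 31 to 62.3. With the log2 of this sum as a term, a choice made after the data were seen, the ZT17 to ZT5 difference of Irf7 was 2.39 in control retinas and 2.64 in diabetic ones, with adjusted p-values of 4.35e-13 and 9.09e-11. With the same term the change of Irf7 from ZT21 to ZT1 was -1.41 in control and -1.57 in diabetic retinas, with adjusted p-values of 0.00134 and 1.24e-04. From ZT9 to ZT13 it was 0.67 in control retinas with an adjusted p of 0.205, which did not pass, and 1.56 in diabetic ones with 1.18e-05. In diabetic retinas the endothelial marker Pecam1 fell from ZT21 to ZT1, with a log2 fold change of -0.31 and an adjusted p of 0.0489, and the hemoglobin gene Hbb-bs rose, with 4.67 and 0.0234. The part of vessels and blood in the fall of Irf7 was not tested. The 4 lens genes tested rose from ZT5 to ZT17 in control retinas, with a median log2 fold change of 7.36, and none was called in diabetic retinas. In control ZT17 their sum had a median of 0.83 CPM and a highest value of 1684, so single libraries carried the lens RNA. The ZT17 to ZT5 difference of Irf7 in control retinas was 2.14 to 2.36 with each library left out. Markers of cells within the retina moved in this contrast too. Of 11 microglia markers tested, none was called in control retinas and C1qc rose in diabetic retinas, by 0.75 on the log2 scale. Among 6 rod markers Nr2e3 fell in control retinas, with a log2 fold change of -0.48, and in diabetic ones Nr2e3 and Sag fell, with -0.58 and -0.41. Of 7 markers of Muller glia and astrocytes, Glul and Vim rose in control retinas by 0.29 and 0.39 and none was called in diabetic ones. Of 8 endothelial markers, Flt1 rose by 0.25 and Kdr fell by 0.19 on the log2 scale in control retinas, and Flt1 alone was called in diabetic ones, with 0.28. The part of these cells in the changes of Irf7 was not tested.

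The genotypes stood furthest apart in Irf7 at ZT13. The 4 diabetic libraries had 434.8 to 592.2 normalized counts and the 5 control libraries 173.7 to 407.6. The share of all genes whose groups do not overlap there was not counted, so nothing particular to Irf7 is read from this. The fold was 1.78, with a log2 difference of 0.83 ± 0.19 (SE) and an unadjusted p of 5.86e-05, the third smallest of 18814 genes. The adjusted p was 0.348, so the difference did not pass, and at ZT13 the share of genes called was 0%. At ZT13 the 5 blood markers summed to 0.706 to 8.93 CPM in diabetic and 0.0834 to 1.08 in control retinas. The 6 pigment epithelium markers summed to 103.7 to 183 and 40.5 to 165.6 there. The part of blood in the difference of Irf7 was not tested. At the other 5 time points the log2 difference of Irf7 was 0.12 to 0.30, and the genotypes overlapped. The acrophase, the time of the fitted peak, differed by -0.673 h (diabetic minus control). A test of the genotype difference in cosine and sine gave an unadjusted p of 0.117 and an adjusted p of 1 for Irf7, and 0% of 17317 genes passed that test.

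With the time points of a genotype pooled, Irf7 had a mean of 342.6 ± 233 (SD, n = 30) normalized counts in control retinas and 433.8 ± 275.2 (SD, n = 28) in diabetic ones. The log2 difference was 0.34 ± 0.23 with an adjusted p of 0.501. With the time point as a term, which takes the daily swing out of the error, the difference was 0.30 ± 0.08, a 1.23-fold higher level in diabetic retinas, with an adjusted p of 0.0141. That fit called 5.46% of 17317 genes. Without ZT13 the difference was 0.20 with an adjusted p of 0.128, and without any other single time point it was 0.30 to 0.33 and passed.

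H2-K1 was slightly higher in diabetic retinas, and H2-D1 had a smaller difference of the same sign that did not pass. H2-K1 ranged from 217.3 to 304.9 normalized counts in control retinas, with a median of 252.3, and from 221 to 404 in diabetic retinas, with a median of 280. The diabetic median thus lay within the control range. The log2 difference over all time points was 0.18 ± 0.05, a 1.14-fold higher level, with an adjusted p of 0.0245. H2-K1 was the only member called, against 3.41% of 17317 genes in either direction and 1.88% higher in diabetic retinas. H2-D1 ranged from 323.2 to 487.8 in control retinas and from 370.9 to 630.7 in diabetic ones, with medians of 412.5 and 447.4. Its difference was 0.13 ± 0.04 with an adjusted p of 0.0626, which did not pass. With the time point as a term the adjusted p was 0.0471, but 0.076 to 0.201 when any single time point was left out of that fit. The call of H2-K1 did not rest on 1 library, since its adjusted p was 0.0146 to 0.0438 with each left out. It was lost without the low-count filter, at an adjusted p of 0.0558, and without ZT1, ZT13, ZT17 or ZT21, at 0.0744 to 0.126. With the time point as a term H2-K1 passed, at 0.18 ± 0.05 with an adjusted p of 0.0145. In that fit it did not pass without ZT13, ZT17 or ZT21, at 0.0545 to 0.0919.

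B2m, the light chain, had 229.1 ± 44.3 (SD, n = 30) normalized counts in control retinas and 229.4 ± 46.5 (SD, n = 28) in diabetic ones, and the log2 difference was 0.00 ± 0.07. Whether B2m differed from the heavy chains in its shift was not tested.

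Irf9, the DNA-binding subunit of the complex that binds the ISRE, had 209.3 ± 27.2 normalized counts in control retinas and 216.4 ± 27.7 in diabetic ones, with a log2 difference of 0.05 ± 0.05 and an adjusted p of 0.73. Irf1 had 64.4 ± 10.4 and 61.7 ± 9.42, with -0.06 ± 0.06 and an adjusted p of 0.697. Neither passed. Ifit1 had 34.5 ± 14.6 in control retinas and 42 ± 17.8 in diabetic ones, with 0.26 ± 0.14 and an adjusted p of 0.329. The difference of Ifit1 was 0.17 without replicate 3 of diabetic ZT1 and 0.36 without replicate 2 of control ZT17. At ZT17 alone it had the other sign, at -0.46 ± 0.32 with an adjusted p of 0.751. There replicate 2 of the controls had 93.7 normalized counts, the other control libraries 22.2 to 48.9 and the diabetic ones 20.4 to 46.7. With the time point as a term and without ZT17 the difference of Ifit1 was 0.43 with an adjusted p of 0.0483. Isg15 had 7.79 ± 3.5 and 8.96 ± 5.37, and was below edgeR's filter on low counts in this fit. Without the filter its log2 difference was 0.18 with an adjusted p of 0.699.

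No member was called at any single time point. The fit called 0.0106%, 0.0213% and 0.00532% of genes at the light phase points, in order of time, and 0%, 0.175% and 0% at those of the dark phase. Besides Irf7 at ZT13, the unadjusted p was under 0.05 for Ifit1 at ZT1, with a log2 difference of 0.71 ± 0.31 and an adjusted p of 0.829, and for the heavy chains at ZT21. There H2-K1 differed by 0.29 ± 0.13 and H2-D1 by 0.23 ± 0.11, with adjusted p-values of 0.986 and 1. Without replicate 4 of diabetic ZT21 these differences of H2-K1 and H2-D1 were 0.18 and 0.15. Ifit1 at ZT1 rested on 1 diabetic library with 113.9 normalized counts. The other 4 had 38.1 to 44.8, the control libraries 29 to 41.6, and without that library the difference was 0.29.

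**Figure D2:**
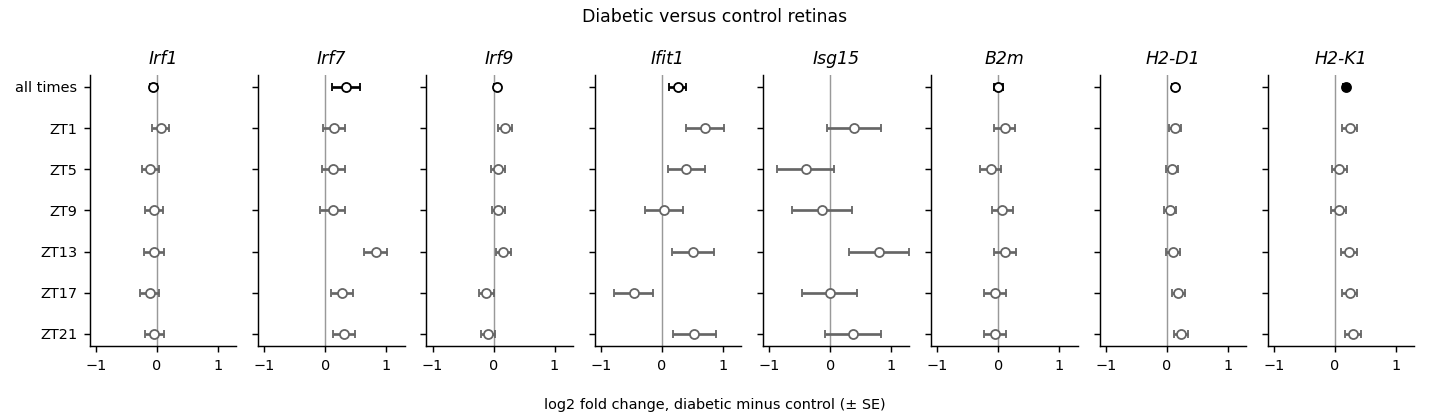
Log2 fold change of diabetic over control retinas (x axis) for each of the 8 genes, over all time points and at each time point (y axis), with bars of 1 SE and a filled symbol for an adjusted p under 0.05. H2-K1 over all time points, at 0.18, is the only filled symbol, Irf7 at ZT13 lies at 0.83, and Isg15 has no value over all time points.

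Other genes of the same pathways were taken from 9 lists with 148 genes. Over all time points 97 of them were tested, 3 rose in diabetic retinas and 1 fell, where 3.41% of all genes were called, with a median log2 difference of 0.07 against 0.00 over all genes. Tap2, a subunit of the transporter that carries peptides to class I molecules, rose by 0.26 ± 0.05 on the log2 scale, with an adjusted p of 2.91e-04. Its mean was 144.8 ± 18.6 (SD, n = 30) normalized counts in control retinas and 174.1 ± 21.2 (SD, n = 28) in diabetic ones. H2-Q4, a non-classical class I heavy chain, rose by 0.31 ± 0.07 with an adjusted p of 0.00707, from 46 ± 8.47 to 56.9 ± 11. Cmpk2, an interferon-induced nucleotide kinase, rose by 0.18 ± 0.05 with an adjusted p of 0.0335. Cmpk2 did not pass when any one of 7 libraries was left out, with adjusted p-values up to 0.0538, whereas Tap2 and H2-Q4 passed with each library left out.

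Calr, a chaperone of the endoplasmic reticulum that helps load class I molecules, fell in diabetic retinas, with a log2 difference of -0.27 ± 0.07 and an adjusted p of 0.0191. It was the only pathway gene called at a single time point, at ZT17, with -0.62 ± 0.13 and an adjusted p of 0.0103, or 0.102 without replicate 5 of diabetic ZT17. Calr serves many proteins of the endoplasmic reticulum besides class I molecules. So of the 13 genes of class I presentation, 1 rose, 1 fell and 11 did not pass, with a median difference of 0.03. With the time point as a term Pdia3, another chaperone of class I loading, fell too, by 0.17 on the log2 scale with an adjusted p of 0.00659, so that 1 rose and 2 fell.

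The interferon genes themselves had hardly any reads. Over all 58 libraries the 10 ligands summed to 5 reads, with 7 of them at 0 and no count above 1, so none could be tested at this depth. Of the 9 receptor and kinase genes 8 were tested and none was called, and the smallest p-value belonged to the kinase Jak2, with 0.08 ± 0.04 and an adjusted p of 0.248, followed by Tyk2, a kinase of the type I receptor, with 0.07 ± 0.04 and 0.45. None of 9 transcription factors was called, with Irf4 at -0.26 ± 0.12 and Irf5 at 0.21 ± 0.11. Of the nucleic acid sensors 6 were tested and none passed, and Ddx58, the RNA sensor RIG-I, had 0.17 ± 0.05 with an adjusted p of 0.0665, while Mavs, the adaptor that relays its signal, had -0.11 ± 0.04 with 0.0888. With the time point as a term Ddx58 passed, at 0.18 ± 0.05 with an adjusted p of 0.029. Of 39 interferon-stimulated effectors tested, 1 rose, with a median of 0.08 over the list. At single time points, where 46 of them were tested and none was called, the median ran from -0.09 at ZT17 to 0.38 at ZT1. None of 8 feedback inhibitors passed, with Pias1, an inhibitor of STAT signalling, at 0.06 ± 0.02 and an adjusted p of 0.124, and Usp18, which removes Isg15 from proteins, at 0.38 ± 0.16 and an adjusted p of 0.187. Of 11 other class I heavy chains tested 1 rose, with a median of 0.16. None of 3 class II genes passed, and Cd74, the invariant chain, had 0.63 ± 0.24 with an adjusted p of 0.143, and H2-Ab1, a class II chain, 0.16 ± 0.12 with 0.572.

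Among cell type markers over all time points, Cx3cr1 of the microglia list fell by 0.22 on the log2 scale, with an adjusted p of 0.0409, and the other 10 microglia markers tested did not pass. The call of Cx3cr1 was lost when any one of 21 libraries was left out, at adjusted p-values up to 0.0666. None of 8 endothelial markers was called. With the time point as a term, Irf7, H2-K1 and H2-D1 passed. In that fit the microglia marker Cx3cr1, the rod marker Sag and the pigment epithelium marker Rpe65 were lower in diabetic retinas. Their log2 differences were -0.24 ± 0.06, -0.15 ± 0.03 and -0.54 ± 0.15, with adjusted p-values of 0.0154, 0.00182 and 0.0254. The summed microglia markers were 42.9 to 54.2 CPM in control retinas and 39.1 to 58.3 in diabetic ones, so the ranges overlapped. With the pigment epithelium sum as a term in the fit over all time points, the log2 difference of H2-K1 was 0.18 with an adjusted p of 0.0253, that of Tap2 0.28 with 1.49e-04 and that of H2-Q4 0.31 with 0.00831. In that fit H2-D1 had 0.13 with an adjusted p of 0.0817 and Irf7 0.45 with 0.232, and Irf7 at ZT13 had 0.92 with 0.251, none of which passed. The part of microglia and rods in these differences was not tested.

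No other pathway gene called rhythmic reached the relative amplitude of Irf7. Of the 148 genes 110 were expressed, and 14 were rhythmic in control retinas and 18 in diabetic ones, with 4 in both. Of all expressed genes 21.8% and 23.9% were. The highest relative amplitude was 41.2% in control retinas and 42.8% in diabetic ones, below that of Irf7, and they belonged to Trim30d and Phf11d, with means of 6.24 and 5.47 normalized counts, named after their values were seen. Calr had the smallest p-value in control retinas, with a relative amplitude of 24.2% and a peak at ZT20.3, and the kinase Tyk2 in diabetic retinas, with 8.15% and a peak at ZT5.47. Of the 9 transcription factors expressed, none was rhythmic in control retinas and Irf4 in diabetic ones. The genes named here for time were chosen after their values were seen. From ZT5 to ZT17, 5 of 108 pathway genes tested rose and 2 fell in control retinas, where 15.6% of all genes were called. Irf3, the relative of Irf7 that starts the interferon response, rose by 0.41 ± 0.10, and Tbk1, the kinase that activates both, fell by 0.26 on the log2 scale. Calr rose by 0.57 ± 0.11. These 3 passed with each library left out. The proteasome activator Psme1, with 0.35 ± 0.11, Pdia3, with 0.27 ± 0.09, the antiviral membrane protein Ifitm2, with 1.26 ± 0.37, and Parp12, with -0.32 ± 0.09, were called too, but did not pass when any one of 3, 9, 2 or 1 libraries, in that order, was left out. Pdia3 also did not pass without a low-count filter or with the pigment epithelium term, at adjusted p-values of 0.0517 and 0.114. In diabetic retinas, where 7.6% of all genes were called, Gbp4 alone was called, with a log2 fold change of -1.20, and the call was lost when any one of 6 libraries of those time points was left out, with -0.92 without replicate 5 of ZT17. From ZT21 to ZT1 Tyk2 was called in diabetic retinas, with 0.29 ± 0.08 and an adjusted p of 0.0401. This was lost when any one of 6 libraries was left out, without a low-count filter, at 0.122, and with the pigment epithelium term, at 0.15 and an adjusted p of 0.646.

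Irf7 was also compared with its neighbours on chromosome 7, which were chosen after values were seen. Of the 17 genes that lie within 100 kb or overlap it, Irf7 included, 13 were expressed. Besides Irf7, 4 of 12 had a rhythm p-value under 0.05 in control retinas and 4 in diabetic ones, and all of these passed the call of rhythm, which 21.8% and 23.9% of expressed genes passed. Drd4 and Rassf7 were rhythmic in both genotypes. Drd4, the dopamine D4 receptor, starts 25.5 kb away, on chromosome 7 from 141292006 to 141296464. Its relative amplitude was 47.1% in control retinas and 44.7% in diabetic ones, and it peaked at ZT18.3 and ZT17. Mir210, a microRNA gene 41.2 kb away on the other side, reached 74.6% as its relative amplitude in control retinas, near that of Irf7, with a peak at ZT15.8 and a p of 1.10e-05. In diabetic retinas it had 25.4% and a p of 0.0749, and the genotype difference in its rhythm was not tested, since it was below the filter on low counts of that fit. Its mean was 5.73 normalized counts, so its counting error was large. Rassf7, 44.0 kb away, had 15.2% and 15.3% and peaked at ZT16.5 and ZT17.3. Phrf1, which overlaps the end of Irf7, had 2.97% and 2.08% and was rhythmic in neither genotype, and neither was Deaf1 on the far side of Drd4.

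At ZT13 Drd4 had 3563 to 5064 normalized counts in diabetic retinas and 2402 to 4594 in control retinas, and the libraries overlapped. The log2 difference was 0.38 ± 0.14 with an unadjusted p of 0.00937 and an adjusted p of 0.845, which did not pass. At the other 5 time points it was -0.23 to -0.05. Irf7 and Drd4 each had their largest fitted difference at ZT13. The share of all genes with their largest difference there was not counted, so nothing about the locus is read from this.

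**Figure D3:**
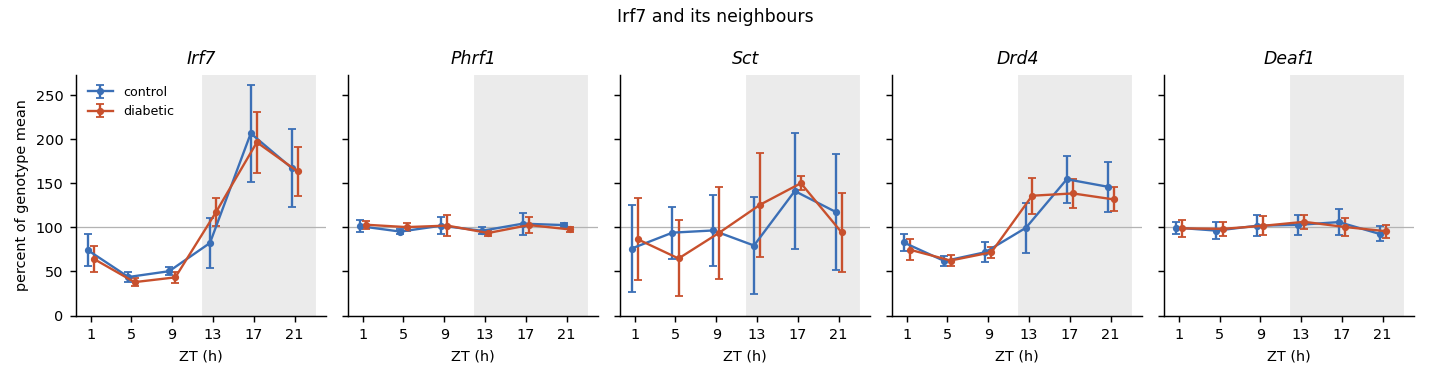
Counts of Irf7 and 4 neighbouring genes as percent of the mean of the genotype (y axis) by time in hours after lights on (x axis), with group means and bars of 1 SD, control in blue and diabetic in red, and the dark phase shaded. Irf7 and Drd4 rise in the dark, Phrf1 and Deaf1 stay near 100%, and Sct, at a mean of 5.04 normalized counts, has wide bars.

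Whether the members varied together between retinas of the same group was asked with the deviations of log2 CPM from the 12 group means over 58 libraries. Of 28 pairs, 4 had an adjusted p under 0.05 in a permutation test of 100000 shuffles within groups. The share of all gene pairs that would pass was not computed, so nothing about the members is read from this count. H2-D1 and H2-K1 had a Pearson's r of 0.75 and a Spearman's rho of 0.69, both with an adjusted permutation p of 2.80e-04. Without the 2 libraries farthest from the median of H2-D1, r was 0.70, and it was 0.60 in control retinas and 0.81 in diabetic ones. Of 18813 genes, 2 had a higher rho with H2-D1 than H2-K1 had, and 4 a higher rho with H2-K1 than H2-D1 had. Sequence that the heavy chains share could add to this value, and that part was not tested.

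Ifit1 and Isg15 varied together with r of 0.48 and rho of 0.44, at adjusted permutation p-values of 0.0138 and 0.0242. Without 2 libraries r was 0.38, and within genotypes it was 0.54 in control retinas and 0.44 in diabetic ones. B2m and H2-K1 had r of 0.42 and rho of 0.41, with adjusted permutation p-values of 0.0138 and 0.0242. Here r was 0.12 in control retinas and 0.60 in diabetic ones, and 0.44 without 2 libraries. Irf7 and H2-K1 had r of 0.39 and rho of 0.43, with adjusted permutation p-values of 0.0339 and 0.0242, r of 0.36 and 0.48 in control and diabetic retinas, and 0.46 without 2 libraries. Of 18813 genes, 13.8% had a higher rho with B2m than H2-K1 had and 9.26% a higher rho with H2-K1 than B2m had, and for Irf7 and H2-K1 these shares were 2.21% and 7.67%. For Ifit1 and Isg15 they were 0.505% and 0.0638%. These values include the depth and tissue makeup that libraries share, and nothing particular to the members is read from them. For Irf7 and Irf9, r was 0.09 with an adjusted permutation p of 0.66, and for Irf7 and Ifit1 it was -0.21 with 0.373. Neither passed.

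**Figure D4:**
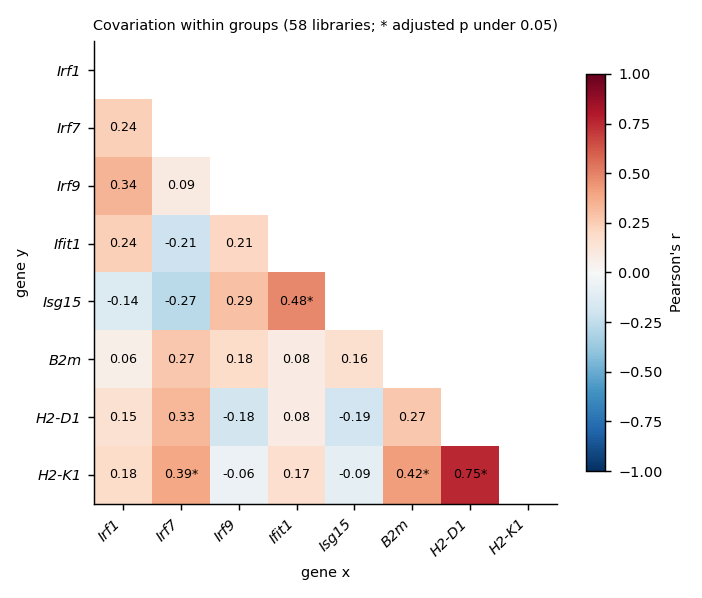
Pearson's r between each pair of the 8 genes (both axes), from deviations of log2 CPM from group means over 58 libraries, with a star for an adjusted p under 0.05. The highest value is 0.75 between H2-D1 and H2-K1, and the value between Ifit1 and Isg15 is 0.48.

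The genes most like each member other than H2-K1 were those with the highest Spearman's rho of the same deviations over 58 libraries, among 18806 other genes, as a description. For Ifit1 they were Eif2ak2, Parp9 and Usp18, with rho of 0.66, 0.61 and 0.60, all genes known to be induced by interferon. For Isg15 they were A630023P12Rik, Usp18 and Ifit3, with 0.59, 0.55 and 0.50. For Irf7 the first gene was Drd4, with rho of 0.75, followed by Slc29a1 with 0.68 and Fam212b with 0.63. By Pearson's r with Irf7 over the 12 group means, which hold the pattern in time, Drd4 ranked 31 of 18806 genes, at 0.947. Frmpd2 was first by that measure, at 0.977. By rho of the deviations again, the genes most like H2-D1 were Lrpap1, Ctsz and Fam234b at 0.72, 0.71 and 0.67. For B2m they were Dynlrb1, Ptpra and Msn at 0.73, 0.72 and 0.70, for Irf9 Stx5a, Gpbp1l1 and Cdan1 at 0.59, 0.58 and 0.56, and for Irf1 Rpusd4, Zfp41 and Fah at 0.56, 0.55 and 0.53. Libraries share depth and tissue makeup, which such values include.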

How the data were processed

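The authors aligned the reads of each retina with STAR 2.7.4a to GRCm38.p5 with Gencode M15 and counted them per gene with HTSeq 0.11.1. The deposited values are raw counts, neither normalized nor filtered. Every column was assigned by its title, and gene positions are those of Gencode M21 on the same build. Members, lists and comparisons were chosen with earlier results of these data known.

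Genotypes and time points were compared with edgeR 4.0.16 (quasi-likelihood test, TMM factors, filterByExpr, Benjamini-Hochberg adjustment), with 1 group per genotype over all time points and 12 groups for contrasts of single groups. The study used DESeq2, which was run as an alternative (version 1.42.0, R 4.3.3). Rhythm was tested with a re-implementation of empirical JTK_CYCLE in Python with numpy and scipy, with a period of 24 h, 6 phases and 5 widths against 1000000 shuffled series, or 200000 for the alternatives. It used counts divided by DESeq2 size factors for 19120 genes with a median above 4 over all libraries. The acrophase and relative amplitude came from a least-squares cosine. The genotype difference in rhythm was an edgeR interaction of genotype with cosine and sine. Correlations used log2 CPM with a prior count of 2. The scripts were tested on simulated data.

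Pathway genes named between genotypes are those past the threshold in each list, at most 5 by p-value, or, for the pooled comparison, the pair of lowest p-values where none passed. Those named for time were chosen after their values were seen. The genes most like H2-K1 are not reported here. The promoters searched were cut to the part before the start. Each retina was taken as 1 replicate, and p-values measure the spread between these libraries. Depth was 7773117 to 22147398 counted reads per library, so that genes with few reads, such as Isg15, carry a large counting error.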

Additional observations from a re-analysis of the deposited data

Results flagged for a closer look

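In 12 groups for each of 8 genes, 96 in all, 5 had 1 library that stood apart from the rest of its group by Dixon's criterion, where chance gives about 1 in 20, or 4.8. Ifit1 accounted for 3 of them. It had 113.9 normalized counts in replicate 3 of diabetic ZT1, against 38.1 to 44.8 in the others, and the same library had the highest Isg15 count, 26.5. It had 73 in replicate 1 of diabetic ZT13, against 32.4 to 38.2, and 15.9 in replicate 5 of control ZT13, against 33.9 to 38.9. B2m had 316.8 in replicate 4 of diabetic ZT21, against 210.6 to 223.4. H2-K1 had 296.6 in replicate 4 of control ZT9, against 251.4 to 261.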

How the results depend on the processing

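Besides leaving out single libraries, 862 refits under other settings were made, of which 757 kept their direction and side of the threshold or stayed within 1.5 times the count, and 105 did not, 9 of them by a reversed direction. All of the reversals were of B2m between genotypes, whose log2 difference was -0.00 without a low-count filter and with a median above 10, -0.01 with a replicate block, -0.02, -0.01 and -0.02 without ZT1, ZT9 or ZT13, and -0.02, -0.01 and -0.02 when these were left out with the time point as a term. H2-K1 did not pass without a low-count filter (0.18, adjusted p 0.0558), without ZT1, ZT13 or ZT17 (each 0.17) or without ZT21 (0.16), nor with the time point as a term without ZT13 or ZT17 (each 0.17) or ZT21 (0.16). Irf7 from ZT9 to ZT13 in control retinas passed in DESeq2, with 0.72 and an adjusted p of 0.0496. The cause was not tested. The difference of Irf7 at ZT13 passed in none of these settings, with adjusted p-values of 0.131 to 1, or of 0.0879 to 1 with single libraries left out. The settings with the pigment epithelium term, with the ratio of time point means, with time points left out of the rhythm test, and with the time point as a term while leaving one out, were chosen after seeing the data.

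The genes called between genotypes over all time points numbered 387 without a low-count filter, 945 with the time point as a term, and 321, 255, 352, 263 and 232 without ZT1, ZT5, ZT9, ZT17 or ZT21. At ZT1 the fit without a filter called 1, the libraries of the time point alone 0 and DESeq2 4. At ZT5 the replicate block gave 8, and the time point alone and DESeq2 27 each. At ZT9 no filter and the block gave 3 each, the time point alone and DESeq2 4 each, and the pigment epithelium term 0. At ZT17 the block gave 62, the time point alone 0 and DESeq2 90. At ZT21 no filter gave 1, the block 13 and DESeq2 4. At ZT13 edgeR and DESeq2 called 0, with 843 genes at an unadjusted edgeR p under 0.05, and 878 at ZT21. From ZT9 to ZT13 the block gave 40 and DESeq2 44 in control retinas, and in diabetic ones 68 and 70, with 21 under the pigment epithelium term. From ZT21 to ZT1 that term gave 12 in control and 78 in diabetic retinas, and no filter 312 in the latter. The interaction called 3 genes without a filter and 0 in DESeq2, with 582 at an unadjusted edgeR p under 0.05. Rhythmic genes in control retinas numbered 1573 at an adjusted p, 2532 with the ratio of time point means, 2691 without ZT17, 2145 in edgeR's cosine fit, 2383 with the replicate block, 1454 for any time difference and 1701 with the pigment epithelium term. In diabetic retinas they numbered 1874, 2710 with the ratio of time point means, 2399 in the cosine fit, 2748 with the block, 1440 for any time difference and 2705 with the pigment epithelium term. The labels do not say that replicate numbers mark pairs. Over 26 same-numbered pairs of libraries the correlation of deviations was -0.214 to 0.588 with a median of 0.126. It was above 0.1 in 17 and not in all, so the fits without the block are given in the report, and 14 correlated best with their own number, a hint of shared structure from the data and not from the design.

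With single libraries left out, calls over all time points numbered 456 to 620. At ZT1 to ZT21 they were 0 to 4, 2 to 8, 0 to 2, 0 to 1, 3 to 95 and 0 to 14, where the 3 were without replicate 5 and the 95 without replicate 1 of diabetic ZT17. From ZT5 to ZT17 they were 1388 to 3758 in control and 892 to 1754 in diabetic retinas, from ZT9 to ZT13 11 to 29 and 6 to 52, and from ZT21 to ZT1 66 to 147 and 292 to 648. B2m ranged from -0.02 to 0.03, and H2-D1 from 0.11 to 0.14, with 5 fits that passed. Irf7 from ZT9 to ZT13 in control retinas ranged from 0.55 to 0.85 and passed without replicate 1 of control ZT13, at an adjusted p of 0.045.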
